A study of Homo sapiens with 6 samples.

Results

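The liver-enriched transcription factors described here are 8 genes, HNF4A, HNF4G, FOXA1, FOXA2, FOXA3, CEBPA, ONECUT2 and NR1H4, taken by symbol from the 60612 gene rows of 1 expression table, with rows of few or 0 reads kept. RNA was sequenced from 6 libraries of SNU-368, a human line that the submitters place among hepatocellular carcinoma lines. Of these, 3 libraries carried a short hairpin RNA against TFAM (shTFAM) and 3 carried a control hairpin (shCtrl). TFAM is the factor that packages mitochondrial DNA (mtDNA) and starts its transcription, and the design asks what changes when it is reduced. The labels do not say whether the libraries of a group were separate cultures, how many hairpins were used or whether cells were cloned, and the p-values then reflect only how these libraries vary, which may be technical variation.

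Hepatocyte identity rests on a small network of transcription factors that bind each other's promoters and those of liver genes. FOXA proteins are pioneer factors that open chromatin at liver enhancers, HNF4A and CEBPA drive genes of secretion and metabolism, ONECUT factors act in liver and bile duct development, and NR1H4 encodes FXR, the bile acid receptor. Loss of HNF4A or CEBPA expression is a known feature of dedifferentiated liver cancer cells.

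Of the 8, only CEBPA and FOXA1 were expressed above 0.5 FPKM, a read count scaled to gene length and library size, on average over the 6 libraries. CEBPA fell in shTFAM cells, at 13.6 ± 0.713 CPM in shTFAM and 27.2 ± 4.81 CPM in shCtrl (SD, n = 3 each; CPM are counts scaled to TMM-adjusted library size). FOXA1, at 15.3 ± 0.847 CPM in shTFAM and 12.6 ± 1.99 CPM in shCtrl (SD, n = 3 each), did not pass the test. HNF4A, ONECUT2 and NR1H4 had reads in all 6 libraries but averaged below 0.5 FPKM, FOXA3 and HNF4G had reads in 1 library each, and FOXA2 had 0 counts in all 6. So 2 of the 8 factors were tested, 5 had counts below that level and 1 had none. Of the 2 tested, 1 was lower and 0 were higher at an edgeR adjusted p below 0.05, where 6.59% of the 14708 tested rows were lower, 11.3% higher and 17.9% called in all. DESeq2 also called 1, and 1 of the 2 had an unadjusted edgeR p below 0.05.

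**Figure D1:**
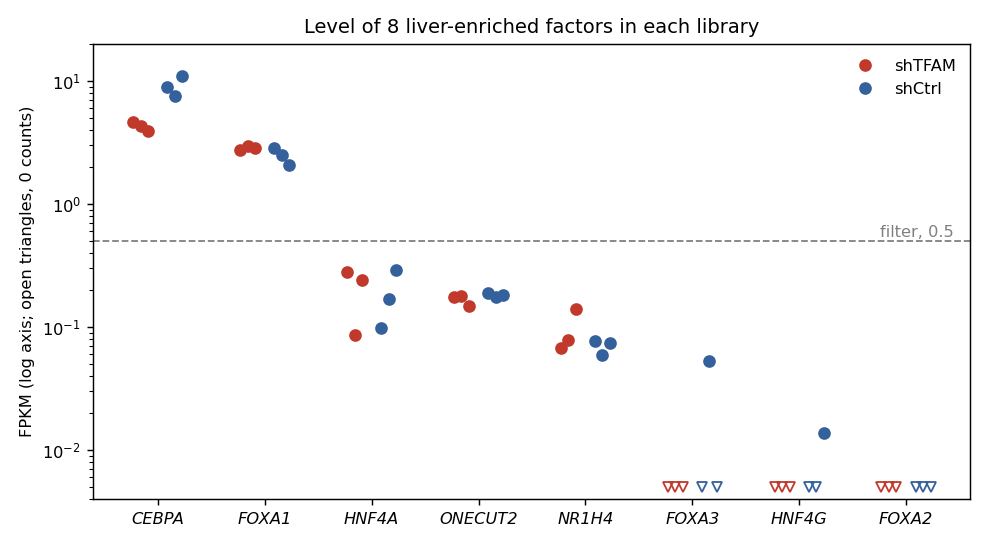
FPKM of the 8 liver-enriched factors in each library, on a log axis, with shTFAM libraries left (red) and shCtrl libraries right (blue) of each gene's tick; open triangles at the foot stand for 0 counts and the dashed line marks the 0.5 FPKM needed for testing. CEBPA and FOXA1 lie above the line in all 6 libraries, and CEBPA lies between 3.94 and 4.64 in shTFAM libraries and between 7.58 and 10.9 in shCtrl libraries.

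The shTFAM libraries held 46263488 to 61058282 counts and the shCtrl libraries 43286024 to 50910536, so that 3 counts, the limit that a count of 0 allows, corresponded to 0.0517 to 0.0673 CPM (counting error only). TFAM itself stood at 61.5 ± 4.48 CPM in shTFAM and 82.2 ± 6.71 CPM in shCtrl (SD, n = 3 each). All 3 shTFAM libraries lay below all 3 shCtrl libraries, as in 20.1% of tested rows. The TFAM difference was -0.42 in log2 (SE 0.107) at an edgeR adjusted p of 0.0377. That call ended when any 1 of the 6 libraries was left out (edgeR adjusted p 0.0676 to 0.0948). The library shCtrl 3 stood apart from shCtrl 1 and shCtrl 2 on the second principal component of log2 CPM (15.5% of the variance), while the first (52.7%) separated the groups. Reads from mtDNA made up 7.91 to 10.7% of counts in shTFAM libraries and 10.1 to 14.2% in shCtrl libraries, and these ranges overlap.

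CEBPA (ENSG00000245848, chromosome 19, 33299934 to 33302534, minus strand, hg38) encodes C/EBPα, a basic leucine zipper factor that restrains proliferation and drives gluconeogenic, urea cycle and plasma protein genes. Its 250 upstream bases, chr19:33302535-33302784 on the minus strand in the GRCh38.p14 tables of RefSeq, are shown because it is the only member called as changed; capitals mark a TATA box (TATAAA) and GC boxes (GGGCGG on either strand).
CEBPA: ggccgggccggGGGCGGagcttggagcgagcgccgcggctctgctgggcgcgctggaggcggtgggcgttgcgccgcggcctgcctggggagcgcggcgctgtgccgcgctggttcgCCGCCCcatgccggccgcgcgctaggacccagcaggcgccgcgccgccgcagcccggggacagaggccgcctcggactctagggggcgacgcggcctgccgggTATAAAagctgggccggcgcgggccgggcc
Counted from the transcription start, TATAAA lay at -30 and the GC boxes at -239 and -133. This stretch was 81.2% G and C with 41 CpG dinucleotides, more than in 98.3% of the 35116 promoters of that table, whose median is 58% and 11.

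CEBPA reached 666, 613 and 749 counts in shTFAM libraries, against 1176, 1183 and 1608 in shCtrl libraries. Per length, that was 4.64, 4.33 and 3.94 FPKM in shTFAM libraries, against 8.86, 7.58 and 10.9 FPKM in shCtrl libraries. The groups did not overlap, as in 20.1% of tested rows where all shTFAM libraries were lower and in 42.2% in either direction; the lowest shCtrl library was shCtrl 2 and the highest shCtrl 3. On the log2 scale shTFAM minus shCtrl was -1.00 (SE 0.158), a 2.00-fold lower level at an edgeR adjusted p of 0.00867. Within shTFAM the highest library exceeded the lowest by a factor of 1.11, and within shCtrl by 1.41, so the control libraries varied more. Leaving out shCtrl 3, the library that stood apart and held most CEBPA, gave -0.87 (SE 0.133, edgeR adjusted p 0.0164), and leaving out shCtrl 3 and shTFAM 3 together gave -0.82 (edgeR adjusted p 0.0274).

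Among the 969 rows that fell, CEBPA ranked 110 by p and 265 by size of the fall. Of 614 tested rows that the table's Gene Ontology terms mark as transcription factors, 40 fell (6.51%) and 90 rose (14.7%). CEBPA was the 10th of those 40 by size of the fall and the 14th by mean FPKM, and the most abundant of the 10 that fell by at least 1 log2 unit. Its mean FPKM lay at the 75.2 percentile of 19673 protein-coding rows, and that of FOXA1 at the 58.9 percentile.

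The neighbourhood of CEBPA on chromosome 19 holds CEBPG, which encodes a related zipper protein, and the divergent transcript CEBPA-DT. CEBPA-DT lies 323 bases away on the other strand and had 32, 4 and 12 counts in shTFAM libraries, against 37, 49 and 39 in shCtrl libraries. The lowest shCtrl value lay above the highest shTFAM value. It was below the level tested, and without that filter its log2 fold change was -1.38 (edgeR adjusted p 0.314). The 2 antisense rows that overlap CEBPA had at most 4 counts in any library. Of the 13 rows within 100 kb, 7 had 0 counts in all libraries and 2 were tested, CEBPG and PEPD (log2 fold change 0.35, edgeR adjusted p 0.277), neither of which passed.

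The C/EBP proteins bind as dimers with one another, and CEBPB is the member that acute-phase and stress signals raise in liver. CEBPB stood at 51.9, 48.1 and 60.0 FPKM in shTFAM libraries, against 32.6, 30.6 and 18.8 FPKM in shCtrl libraries. It was higher in all 3 shTFAM libraries, with a log2 fold change of 1.05 (SE 0.220, edgeR adjusted p 0.0214), a call that ended without shTFAM 3 (0.93, edgeR adjusted p 0.0674). CEBPG had a log2 fold change of -0.60 (edgeR adjusted p 0.145), which passed without shCtrl 3 (-0.86, edgeR adjusted p 0.0242). CEBPD, the early-response member, had 0.31 (edgeR adjusted p 0.328). CEBPE, a myeloid member, had 7, 10 and 38 counts in shTFAM libraries and 0 in all 3 shCtrl libraries, at least 5.52-fold higher against a floor of 3 counts per library, and at least 3.01-fold without shTFAM 3. It averaged below 0.5 FPKM, and the fit without that filter gave an edgeR adjusted p of 0.0488.

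As a share of the summed FPKM of CEBPA, CEBPB, CEBPD and CEBPG, CEBPA held 6.07, 6.25 and 4.52% in shTFAM libraries, against 13.6, 12.5 and 22.3% in shCtrl libraries. The groups did not overlap, and the two-sided exact permutation p was 0.1, the smallest that 3 against 3 can give. CEBPB exceeded CEBPA 11.2, 11.1 and 15.2 times in shTFAM libraries and 3.68, 4.04 and 1.73 times in shCtrl libraries (ratios of FPKM; exact permutation p 0.1). Both ratios were chosen after the values were seen. Of 6 other genes listed beside CEBPA, DDIT3 included, 5 were tested. The list also holds CEBPZ, which shares the symbol but does not encode a leucine zipper C/EBP factor. Of the 5, 1 was higher and 0 were lower by edgeR, beside 11.3% and 6.59% of all tested rows. Among them 2 had an unadjusted edgeR p below 0.05, CEBPZ (0.0245) included, and DESeq2 called 2.

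**Figure D2:**
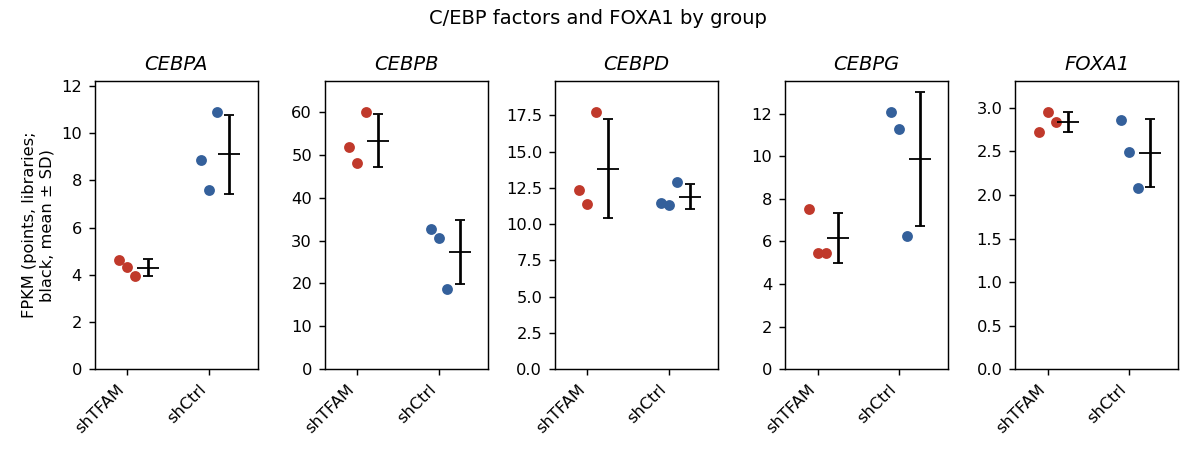
FPKM of 4 C/EBP genes and FOXA1, with 1 point per library, shTFAM left (red) and shCtrl right (blue) in each panel; black marks give the mean and SD of 3 libraries, and each axis starts at 0. CEBPA points lie at 3.94 to 4.64 in shTFAM and at 7.58 to 10.9 in shCtrl, CEBPB points at 48.1 to 60.0 in shTFAM and at 18.8 to 32.6 in shCtrl, and FOXA1 points overlap.

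FOXA1 (ENSG00000129514, chromosome 14, 37589552 to 37595249, minus strand, hg38) encodes a winged-helix pioneer factor that also acts in breast and prostate epithelium. Its 250 upstream bases, chr14:37595250-37595499 on the minus strand (GRCh38.p14, RefSeq), are set beside those of CEBPA as the promoter of the other expressed member; capitals mark GGGCGG.
FOXA1: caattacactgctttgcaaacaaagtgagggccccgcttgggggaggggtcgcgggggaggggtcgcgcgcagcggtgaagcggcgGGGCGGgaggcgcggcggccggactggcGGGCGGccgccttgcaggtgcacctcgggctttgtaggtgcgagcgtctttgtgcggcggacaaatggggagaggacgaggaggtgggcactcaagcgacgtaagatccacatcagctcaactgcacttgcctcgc
The GC boxes lay at -164 and -136 from the start, and the stretch held 26 CpG dinucleotides at 67.2% G and C. TATAAA was not among its letters.

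FOXA1 had 665, 710 and 916 counts in shTFAM libraries, against 646, 660 and 521 in shCtrl libraries. That corresponded to 2.73, 2.95 and 2.84 FPKM in shTFAM libraries, against 2.86, 2.49 and 2.08 FPKM in shCtrl libraries. The groups overlapped, since shCtrl 1 lay above shTFAM 1 and shTFAM 3. The log2 difference of 0.28 (SE 0.161) had an edgeR adjusted p of 0.263 and was positive in all 15 alternatives that could be run (0.14 to 0.38), with adjusted p never below 0.209. A row on the opposite strand that lies 598 bases away, TTC6, had 6, 19 and 5 counts in shTFAM libraries and 35, 26 and 31 in shCtrl libraries, below the level tested.

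FOXA2 (ENSG00000125798, chromosome 20, 22581005 to 22585455, minus strand) is the family member that foregut endoderm needs, and it had 0 counts in every library. All 4 rows within 100 kb of it, LINC00261 among them, also had 0 counts in every library. FOXA3 (ENSG00000170608, chromosome 19, 45863989 to 45873797, plus strand), a member active in liver and gut, had 7 counts in shCtrl 2 and 0 in the other 5 libraries. FOXA1 therefore made up nearly all FOXA expression. The summed FPKM of FOXA1, FOXA2 and FOXA3 was 2.73, 2.95 and 2.84 in shTFAM libraries and 2.86, 2.54 and 2.08 in shCtrl libraries, which overlap (two-sided exact permutation p 0.3).

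HNF4A (ENSG00000101076, chromosome 20, 44355700 to 44434596, plus strand) encodes the nuclear receptor at the centre of the hepatocyte network, and is read from an upstream promoter and from a downstream one that adult hepatocytes use. The gene row sums reads of both promoters, so which one they came from cannot be read from it.

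HNF4A had 114, 35 and 130 counts in shTFAM libraries, against 38, 76 and 121 in shCtrl libraries. In FPKM these were 0.280, 0.0863 and 0.241 in shTFAM libraries, against 0.0982, 0.170 and 0.290 in shCtrl libraries. The groups overlapped fully, and the libraries differed within groups by more than counting error. In shTFAM the highest CPM exceeded the lowest by a factor of 3.16, with exact 95% Poisson intervals of 94.0 to 137 counts in shTFAM 1 and 24.4 to 48.7 in shTFAM 2. In shCtrl the factor was 2.86, with 100 to 145 counts in shCtrl 3 and 26.9 to 52.2 in shCtrl 1. Without the filter on low rows its log2 difference was 0.19 (SE 0.526) at an edgeR adjusted p of 0.871, in a fit that called 6.9% of 30158 rows. The 3 rows that overlap HNF4A, HNF4A-AS1 among them, had 0 counts in every library.

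HNF4G (ENSG00000164749, chromosome 8), the paralog expressed mainly in gut and kidney, had 4 counts in shCtrl 3 and 0 in the other 5 libraries. The summed FPKM of both HNF4 genes was 0.280, 0.0863 and 0.241 in shTFAM libraries and 0.0982, 0.170 and 0.304 in shCtrl libraries (two-sided exact permutation p 1). No fold is given for HNF4G, FOXA2 or FOXA3, which lay at or near the floor of 3 counts.

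ONECUT2 (ENSG00000119547, chromosome 18, 57435374 to 57491298, plus strand) encodes a cut-homeodomain factor that acts with ONECUT1 in hepatobiliary development. It had 161, 161 and 180 counts in shTFAM libraries, against 160, 175 and 170 in shCtrl libraries. Its FPKM were 0.176, 0.179 and 0.149 in shTFAM libraries, against 0.189, 0.176 and 0.181 in shCtrl libraries. ONECUT2 was the steadiest of the low members, with overlapping groups and a highest CPM that exceeded the lowest by factors of 1.15 within shTFAM and 1.06 within shCtrl. Without the filter its log2 difference was -0.04 (SE 0.208) at an edgeR adjusted p of 0.939. ONECUT1 had at most 4 counts in any library.

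NR1H4 (ENSG00000012504, chromosome 12, 100473708 to 100564414, plus strand) encodes FXR, which binds DNA with RXR and, when bile acids bind it, induces NR0B2 and bile acid exporters. It had 14, 16 and 38 counts in shTFAM libraries, against 15, 13 and 16 in shCtrl libraries. The FPKM were 0.0680, 0.0778 and 0.141 in shTFAM libraries, against 0.0764, 0.0588 and 0.0745 in shCtrl libraries. The library shTFAM 3, which was also the deepest, stood above the other 5, with a 95% Poisson interval of 26.9 to 52.2 counts. Scaled to CPM, that interval overlapped the intervals of shTFAM 1, shTFAM 2, shCtrl 1 and shCtrl 3, and not that of shCtrl 2. In CPM, shTFAM 1 lay within the shCtrl range and shTFAM 2 (0.355) just above its top (0.336 in shCtrl 1). Without the filter the log2 difference was 0.52 (SE 0.566) at an edgeR adjusted p of 0.608. Its partner RXRA stood at 3.08, 2.85 and 2.96 FPKM in shTFAM libraries and at 3.03, 2.98 and 3.07 FPKM in shCtrl libraries, and NR0B2 had at most 8 counts in any library.

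**Figure D3:**
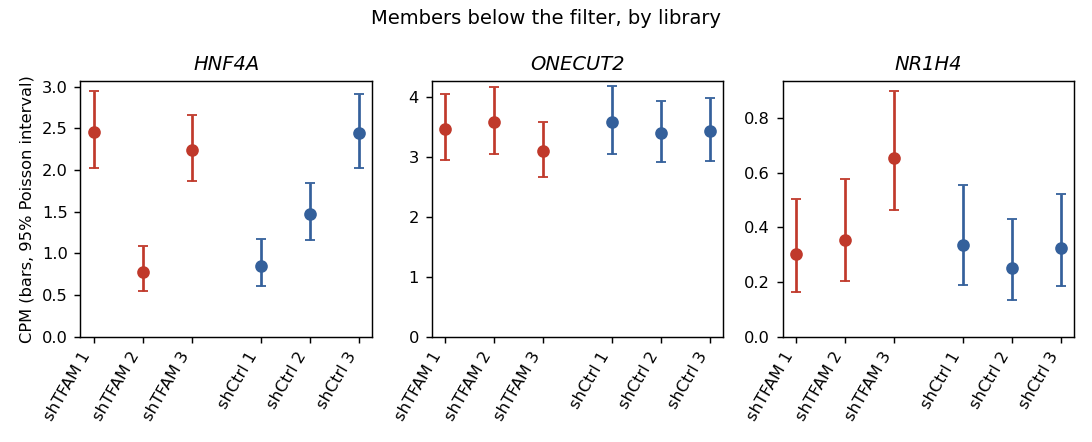
CPM of HNF4A, ONECUT2 and NR1H4 in each library, shTFAM left (red) and shCtrl right (blue), with exact 95% Poisson intervals that cover counting error only; each axis starts at 0. HNF4A runs from 0.777 to 2.45 CPM in shTFAM and from 0.852 to 2.44 CPM in shCtrl, ONECUT2 intervals overlap in all 6 libraries, and shTFAM 3 has the highest NR1H4 value.

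Per length, the members kept 1 order in both groups at the top of the scale. CEBPA lay above FOXA1 in every library, without overlap of their FPKM within either group, and both lay above HNF4A, ONECUT2 and NR1H4 in every library. HNF4A and ONECUT2 did not differ beyond the spread of HNF4A. NR1H4 lay below ONECUT2 in both groups, below HNF4A in shCtrl, and overlapped HNF4A in shTFAM.

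The 6 members with an entry in the RefSeq promoter table had 7 promoters, HNF4A having a pair. Apart from the HNF4A pair, with 8 CpG dinucleotides each, and NR1H4, with 2, they held more than the median of 11: 41 at CEBPA, 28 at FOXA3, 26 at FOXA1 and 20 at ONECUT2. FOXA3, almost undetected, thus held more than FOXA1. GGGCGG was present in all but the promoter of NR1H4 and in 42.6% of the table's promoters, and TATAAA was present at CEBPA and FOXA3 and in 10.7%. The forkhead letters TGTTTAC (2.98% of promoters), the C/EBP palindrome TTGCGCAA (0.131%), the HNF4 letters CAAAGTCCA (0.325%), the E-box CACGTG (6.34%) and the hypoxia core ACGTG it contains (18.5%) were in none of the 7 on either strand. CCAAT (32.0%) was at the upstream HNF4A promoter and AGGTCA (12.1%) at FOXA3 and NR1H4. These are matches of letters in 250 bases and not binding sites.

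Of 40 other liver transcription factors, 25 were tested, 13 had counts below that level and 2, PROX1 and NR1I2, had 0 counts in all libraries. Of the 25, 4 were higher and 1 lower in shTFAM, beside 11.3% and 6.59% of all tested rows, and their median log2 fold change was -0.08 where that of all rows was -0.02. These counts depended on the filter. RORA, at 150, 144 and 220 counts in shTFAM libraries and 50, 53 and 89 in shCtrl libraries, averaged 0.114 FPKM. It was higher without the filter (1.37, edgeR adjusted p 0.0358). BHLHE40, a circadian and hypoxia-responsive repressor, stood at 131, 145 and 192 FPKM in shTFAM libraries, against 62.0, 59.6 and 56.1 FPKM in shCtrl libraries (log2 fold change 1.49, SE 0.169, edgeR adjusted p 0.00343). TBX3, a T-box repressor that supports hepatoblast expansion and is found in Wnt-active liver tumours, stood at 80.3, 82.3 and 100 FPKM in shTFAM libraries, against 56.8, 56.2 and 53.5 FPKM in shCtrl libraries (log2 fold change 0.74, edgeR adjusted p 0.0108). In both genes every shTFAM library lay above every shCtrl library, as it did for CEBPB. Of all tested rows, 42.2% had no overlap in either direction.

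NFIL3, a repressor of clock output genes, rose with a log2 fold change of 1.05 (edgeR adjusted p 0.0396), a call that ended without shTFAM 2, shTFAM 3, shCtrl 1, shCtrl 2 or shCtrl 3 (edgeR adjusted p 0.0704 to 0.0889). MLXIPL, which encodes the glucose-sensing factor ChREBP, fell to 1.93, 1.53 and 1.57 FPKM in shTFAM libraries, against 6.20, 6.07 and 2.94 FPKM in shCtrl libraries. Its log2 difference was -1.52 (SE 0.291) at an edgeR adjusted p of 0.0160, and shCtrl 3 lay nearer to the shTFAM libraries than to the other shCtrl libraries. The MLXIPL call ended without shTFAM 2, shTFAM 3 or shCtrl 2 (edgeR adjusted p 0.0516 to 0.0576). The 25 held 0 to 3 lower genes and 2 to 4 higher genes when single libraries were left out, with 2 higher without shTFAM 3 and 3 lower without shCtrl 3.

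**Figure D4:**
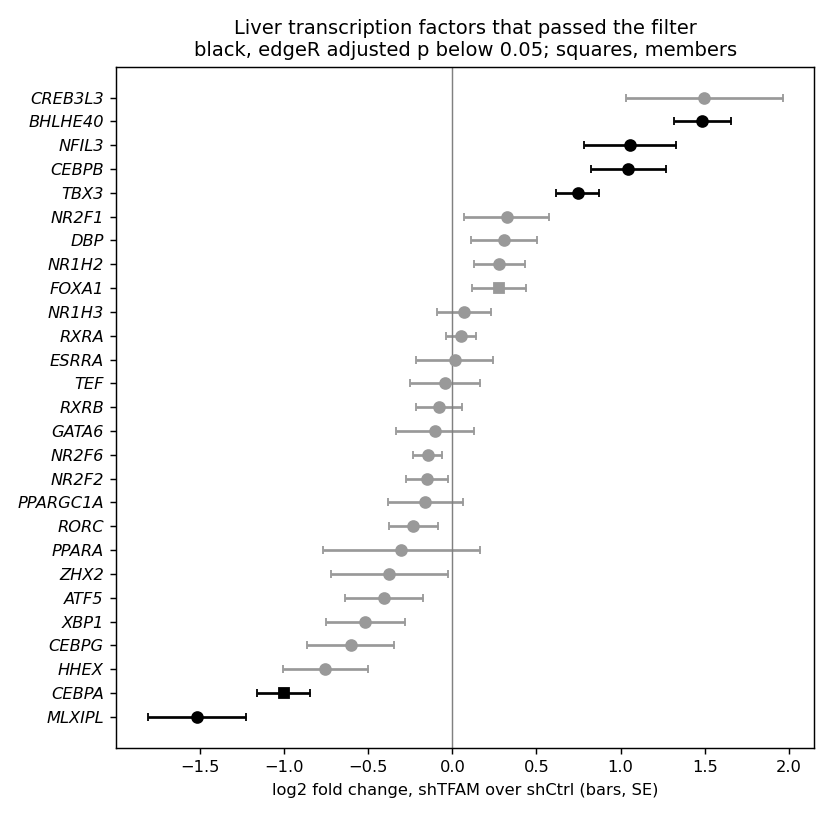
Log2 fold change, shTFAM over shCtrl, of the 25 tested liver factors and of CEBPA and FOXA1 (squares), with SE bars; black points have an edgeR adjusted p below 0.05 and grey points do not. CEBPA, at -1.00, and MLXIPL, at -1.52, are the black points left of 0, and FOXA1 lies at 0.28 in grey.

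All 15 coregulators, the coactivators and corepressors through which these factors act, were tested, and 2 were higher and 0 lower by edgeR (4 at an unadjusted p below 0.05 and 3 called by DESeq2, in either direction; median log2 fold change 0.03). The share called, 13.3%, lay near the 17.9% of all tested rows. NRIP1, a nuclear receptor corepressor, had a log2 fold change of 1.25 (SE 0.238, edgeR adjusted p 0.0153), lost without shCtrl 2 (1.16, edgeR adjusted p 0.0558). NCOA3, a nuclear receptor coactivator, had 0.48 (SE 0.10, edgeR adjusted p 0.0215), lost without shTFAM 2, shTFAM 3, shCtrl 1 or shCtrl 2 (edgeR adjusted p 0.0608 to 0.0758).

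Of 17 forkhead genes outside the FOXA family, 14 were tested, and 5 rose and 0 fell by edgeR, beside 11.3% and 6.59% of all tested rows (6 at an unadjusted p below 0.05, 6 called by DESeq2; median log2 fold change 0.38). The absence of falls depended on the filter. FOXO1, at 92, 85 and 70 counts in shTFAM libraries and 181, 197 and 240 in shCtrl libraries, averaged 0.425 FPKM and was lower without the filter (-1.33, edgeR adjusted p 0.0295). FOXQ1, at 86, 78 and 141 counts in shTFAM libraries and 19, 15 and 13 in shCtrl libraries, was higher without it (2.61, edgeR adjusted p 0.00720). FOXF2, a mesenchymal forkhead gene, stood at 21.6, 22.4 and 28.7 FPKM in shTFAM libraries, against 8.41, 7.53 and 6.56 FPKM in shCtrl libraries (log2 fold change 1.78, SE 0.169, edgeR adjusted p 0.00227). FOXF1, its mesenchymal paralog, rose by 0.82 (edgeR adjusted p 0.0111). The FOXF2 and FOXF1 groups did not overlap, as in 42.2% of tested rows in either direction. FOXN3 (0.76, edgeR adjusted p 0.0182) lost its call without shTFAM 1, shTFAM 3 or shCtrl 1, at edgeR adjusted p 0.0522 to 0.0603. FOXL1 (1.40, edgeR adjusted p 0.0317), a gene of mesenchyme and ductal progenitors, lost it without shTFAM 1, shTFAM 2, shCtrl 2 or shCtrl 3, at 0.0682 to 0.0968. FOXK1 (0.34, edgeR adjusted p 0.0363) lost it without any 1 library other than shCtrl 3, at 0.0723 to 0.125, and with library totals, totals outside mtDNA or upper quartile factors in place of TMM, at 0.0592 to 0.108.

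Textbook targets were listed for HNF4, FOXA, CEBPA and FXR, and not for ONECUT2. Of 83 genes in these 4 lists, 37 had 0 counts in all libraries, 31 had counts below the level tested and 15 were tested. Of the 15, 4 were higher and 1 lower, beside 11.3% and 6.59% of all tested rows, and their median log2 fold change was 0.04. With so few tested targets, nothing particular to the lists is read from these counts. Of 20 CEBPA targets, 12 had 0 counts in all libraries and 1 was tested, CPS1, the first enzyme of the urea cycle, which stood at 121, 107 and 109 FPKM in shTFAM libraries and at 120, 124 and 104 FPKM in shCtrl libraries (log2 fold change 0.03, edgeR adjusted p 0.856). Thus 0 of 1 was called by edgeR, 0 had an unadjusted p below 0.05 and DESeq2 called 0, while the sign of the CPS1 value changed with the scaling. The other 7 CEBPA targets with counts were below the level tested.

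Of 37 HNF4 targets, 16 had 0 counts in all libraries and 5 were tested. Of the 5, 1 was higher and 1 lower by edgeR, beside 11.3% and 6.59% of all tested rows (3 at an unadjusted p below 0.05 and 3 called by DESeq2). AGT, which encodes angiotensinogen, fell to 1.32, 1.33 and 1.72 FPKM in shTFAM libraries, against 7.16, 5.95 and 5.39 FPKM in shCtrl libraries (log2 fold change -1.99, SE 0.205, edgeR adjusted p 0.00279). F10, coagulation factor X, rose to 2.05, 1.68 and 2.42 FPKM in shTFAM libraries, against 0.725, 0.513 and 0.284 FPKM in shCtrl libraries (log2 fold change 2.10, SE 0.363, edgeR adjusted p 0.0115). These called targets moved in opposite directions. The groups did not overlap in either, as in 42.2% of all tested rows in either direction.

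Of 20 FOXA targets, 11 had 0 counts in all libraries, ALB, AFP and TTR among them, and 3 were tested. Of the 3, 1 was higher and 0 were lower by edgeR, beside 11.3% and 6.59% of all tested rows (2 at an unadjusted p below 0.05 and 1 called by DESeq2). TFF1, a secreted trefoil peptide that FOXA1 induces in breast cells, had 39, 27 and 83 counts in shTFAM libraries and 0 in all 3 shCtrl libraries. That was at least 15.4-fold higher against a floor of 3 counts per library (edgeR adjusted p 0.00722), and 11.6-fold without shTFAM 3. Its mean of 0.785 FPKM passed the filter only through the shTFAM libraries, so its place among tested and called targets depends on the group where it was high. Of 30 FXR targets, 10 had 0 counts in all libraries and 7 were tested. Of the 7, 2 rose and 0 fell by edgeR, beside 11.3% and 6.59% of all tested rows (3 at an unadjusted p below 0.05 and 3 called by DESeq2). C3, the central complement component, stood at 123, 112 and 139 FPKM in shTFAM libraries, against 84.2, 83.3 and 73.4 FPKM in shCtrl libraries (log2 fold change 0.72, edgeR adjusted p 0.0121). SDC1, a heparan sulfate proteoglycan, had 0.46 (edgeR adjusted p 0.0235), a call that ended without any 1 library other than shCtrl 3 (edgeR adjusted p 0.0522 to 0.0843).

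Most hepatocyte markers were absent or near 0 in SNU-368. Of 28 hepatocyte markers, 15 had 0 counts in all libraries, ALB, TTR, APOA1, APOB, FGB, HP and TAT among them, and 2 were tested. Their summed FPKM was 107 to 122 in shTFAM and 106 to 126 in shCtrl, nearly all of it CPS1 (exact permutation p 0.6). Without CPS1 the sum was 0.618, 0.685 and 1.19 in shTFAM libraries, against 2.96, 2.80 and 1.86 in shCtrl libraries, with no overlap (exact permutation p 0.1, the smallest possible). VTN, vitronectin, was most of that sum and fell (log2 fold change -1.85, edgeR adjusted p 0.0179), a call lost without shTFAM 1, shTFAM 2, shCtrl 1 or shCtrl 2 (edgeR adjusted p 0.0516 to 0.0597). The sum without CPS1 was not planned, and it is no test apart from that of VTN.

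**Figure D5:**
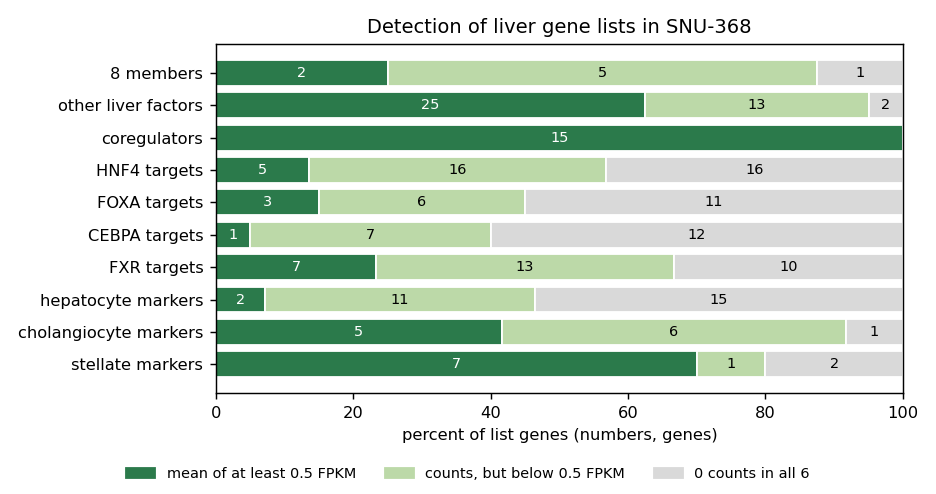
Share of each gene list that averaged at least 0.5 FPKM (dark green), had counts below that (light green) or had 0 counts in all 6 libraries (grey), with the number of genes in each bar segment. All 15 coregulators and 25 of 40 other liver factors reached 0.5 FPKM, against 2 of the 8 members and 1 of 20 CEBPA targets.

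Some markers of other cell types also differed between the groups. The 12 cholangiocyte markers, 1 of them at 0 counts throughout, summed to 296, 230 and 218 FPKM in shTFAM libraries, against 154, 169 and 99.8 FPKM in shCtrl libraries, mostly from KRT7 and CD24 (exact permutation p 0.1). Of the 5 tested, AQP1 (log2 fold change 2.14, edgeR adjusted p 0.00946) and CD24 (1.79, edgeR adjusted p 0.0129) rose and 0 fell, beside 11.3% and 6.59% of all tested rows. Below the level tested, SPP1 had 0, 4 and 8 counts in shTFAM libraries and 8, 13 and 38 in shCtrl libraries. EPCAM, at 8, 8 and 4 against 22, 12 and 10 counts, was also lower. SOX9, at 36, 98 and 142 against 0, 16 and 15 counts, was higher. The remaining low markers had at most 10 counts in any library. The 10 stellate cell markers, with PDGFRA and LRAT at 0 counts, summed to 44.9 to 48.7 FPKM in shTFAM and 31.1 to 44.8 FPKM in shCtrl (exact permutation p 0.1), while their summed CPM overlapped, at 399 to 477 in shTFAM and 262 to 402 in shCtrl (exact permutation p 0.2). Of 7 tested, PDGFRB (1.69, edgeR adjusted p 0.000721) and DCN (2.95, edgeR adjusted p 0.00276) rose and 0 fell, beside the same shares of all tested rows. ACTA2 (-0.68, edgeR adjusted p 0.226) and RGS5 (-0.31, edgeR adjusted p 0.551) had negative values. COL1A1, most of the sum, had 0.09 (edgeR adjusted p 0.779), a sign that changed without shTFAM 3 or shCtrl 3. Of the 8 blood markers 6 had 0 counts, PTPRC among them, and their sum of 12.6 to 17.4 FPKM in shTFAM and 4.56 to 6.79 FPKM in shCtrl was nearly all CD68 (1.43, edgeR adjusted p 0.00892), while the 8 endothelial markers, with KDR, CLEC4G and EMCN at 0 counts, summed to 0.474 to 0.709 FPKM in shTFAM and 0.401 to 0.559 FPKM in shCtrl. The part of these shifts in the CEBPA result was not tested, and in bulk RNA fewer cells that express a gene and less RNA per cell cannot be told apart. Of 6 short-lived transcripts read as a sign of RNA handling, 0 were called by edgeR, 1 had an unadjusted p below 0.05 and DESeq2 called 0. The most abundant of them had log2 fold changes of 0.09 (EGR1, edgeR adjusted p 0.925, negative without shTFAM 1 or shCtrl 3) and 0.65 (FOS, edgeR adjusted p 0.207). JUN was named after its values were seen. It had 4603, 5542 and 9894 counts in shTFAM libraries and 2490, 2680 and 500 in shCtrl libraries. It did not overlap between groups, as in 42.2% of tested rows in either direction, and shCtrl 3 was lowest. Its log2 fold change was 1.74 (edgeR adjusted p 0.0786), and it passed without shCtrl 3 (1.27, edgeR adjusted p 0.0242). The part of RNA handling in the CEBPA result was not tested.

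Among 5848 rows with an ordinary symbol and a mean of at least 5 FPKM, those most like CEBPA over the 6 libraries in log2 CPM were WDR74 (Pearson r 0.996), IFI30 (0.994) and THAP4 (0.994), and 202 rows exceeded 0.95. Those most like FOXA1 were RAB5A (0.996), KLHDC10 (0.981) and CCNL1 (0.974), with 31 rows above 0.95. These coefficients share the same 6 libraries and the group difference and describe likeness only.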

How the data were processed

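The authors deposited 1 table of whole-number counts and FPKM per Ensembl gene, per the file headers, with 6 columns of each matched to samples by title. Libraries were poly(A)-selected and strand-marked, per the labels' protocols. The submitters' processing notes list the builds hg38 and mm8 and the tools StringTie 1.3.4d, HISAT2 2.0.4, Bowtie 0.12.2 and cutadapt 1.9, without roles. Coordinates here are human. The counter, annotation and strand setting are not given in the sources used here, so overlapping genes may share reads.

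Counts were tested with edgeR 4.0.16 (quasi-likelihood, TMM, R 4.3.3) on the 14708 rows that averaged 0.5 FPKM or more, which held 99.4 to 99.5% of counts. The two-sided p-values were adjusted by Benjamini-Hochberg across those rows. The filter took the mean over both groups. Among called genes named here, TFF1, DCN and FOXL1 passed it only through shTFAM and VTN only through shCtrl, where each was higher. Alternatives used DESeq2 1.42.0, limma 3.58.1 on log2(FPKM + 1) and log2(FPKM + 0.1), other filters and scalings, and libraries left out. The code of the test was run on simulated counts that gave all rows the same dispersion, so its error rate on these libraries was not checked. Members and the 15 gene lists were chosen with earlier results of these data known. From each list the called genes of smallest p were named, at most 6, or the 2 most abundant tested genes where none was called. Other genes were chosen after their values were seen. Replicates differed by more than sampling noise (chi-square per degree of freedom at least 41.8). Some genes of the lists are not reported here.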

Additional observations from a re-analysis of the deposited data

How the results depend on the processing

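No paired analysis was possible because the titles give the groups no shared replicate numbers. CEBPA kept its direction and its call in all 16 alternatives (log2 fold change -1.13 to -0.82, highest adjusted p 0.0344), and 1 member was called in each. FOXA1 was not called in any of the 15 that could be run, and a mean of at least 5 FPKM left it untested. The sign of CPS1 turned with limma (-0.045 with a pseudocount of 1, -0.045 with 0.1), at 5 FPKM (-0.00050), with library totals (-0.039), totals outside mtDNA (-0.098) or upper quartile factors (-0.032), without shCtrl 3 and shTFAM 3 together (-0.042), and within -0.049 to 0.090 when 1 library was left out. EGR1 turned to -0.050 with totals outside mtDNA and -0.25 without shCtrl 3 and shTFAM 3, within -0.32 to 0.34 when 1 library was left out. COL1A1 turned to -0.048 with totals outside mtDNA and -0.21 without shCtrl 3 and shTFAM 3, within -0.11 to 0.21 when 1 library was left out. The hepatocyte marker sum, 5.39 FPKM lower in shTFAM, was 31.1 CPM higher as summed CPM. Called rows numbered 2630, against 1148 to 2065 with 1 library left out (843 to 1332 higher, 305 to 733 lower). The lowest came without shCtrl 2, and removing shTFAM 1, shTFAM 2, shTFAM 3 or shCtrl 1 also moved a count by over 1.5 times. DESeq2 called 3850, 1677 of them lower. Totals outside mtDNA gave 1771 lower and 1198 higher and moved the median of all rows to -0.15. At 5 FPKM only 6595 rows were tested, and 1020 of them were higher. Among other liver factors, 4 higher became 2 to 4 and 1 lower became 0 to 3 with 1 library left out. Lower factors numbered 2 with DESeq2, with totals outside mtDNA or without shCtrl 3 and shTFAM 3. At 5 FPKM they numbered 0, where MLXIPL, at a mean of 3.37 FPKM, was not tested. The 2 coregulators became 0 to 2 with 1 library left out, and the 5 called targets became 3 at 5 FPKM. AGT, F10 and TFF1, with means of 3.81, 1.28 and 0.785 FPKM, were not tested there. The 3 thus include a target that the main fit did not call. Of 15 or 16 alternatives each, calls ended in 12 for FOXK1, 8 for TFAM, 7 for NFIL3 and SDC1, 6 for FOXL1, 5 for NCOA3 and DMWD, 4 for VTN and FOXN3, 3 for MLXIPL, 2 for SERINC3 and 1 for CEBPB and NRIP1. Apart from genes that the 5 FPKM filter left untested, the causes of these shifts were not tested. Counts of a few reads limit HNF4G, FOXA3 and NR1H4.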

Other observations

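Within 100 kb of the 8 factors lay 58 other rows, of which 28 had 0 counts in all libraries and 18 were tested. Of these, 2 were higher in shTFAM by edgeR, SERINC3 beside HNF4A and DMWD beside FOXA3, a share near the 11.3% of all tested rows that were higher. SERINC3 had 12370, 11753 and 16977 counts in shTFAM libraries, against 8861, 10376 and 8342 in shCtrl libraries (log2 fold change 0.53, edgeR adjusted p 0.0178; 0.0509 without shCtrl 1 and 0.0516 without shTFAM 3), beside an HNF4A row of 35 to 130 counts in shTFAM and 38 to 121 in shCtrl. DMWD had 1463, 1164 and 1897 counts in shTFAM libraries, against 632, 1047 and 686 in shCtrl libraries (log2 fold change 0.90, edgeR adjusted p 0.0211; 0.0538 to 0.0690 without shTFAM 1, shTFAM 3, shCtrl 1 or shCtrl 3), beside a FOXA3 row with 7 counts in 1 shCtrl library.

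HHEX, a homeobox factor of early liver budding, stood at 1.95, 1.11 and 1.54 FPKM in shTFAM libraries, against 2.33, 2.64 and 3.27 FPKM in shCtrl libraries, with no overlap, and did not pass (log2 fold change -0.75, edgeR adjusted p 0.0788; DESeq2 adjusted p 0.0249). CREB3L3, a membrane-bound factor of hepatic lipid metabolism, stood at 0.940, 2.29 and 0.834 FPKM in shTFAM libraries, against 0.386, 0.395 and 0.723 FPKM in shCtrl libraries, also without overlap, and did not pass (log2 fold change 1.50, edgeR adjusted p 0.0657; DESeq2 adjusted p 0.00945). Both were chosen after their values were seen, and 42.2% of tested rows had no overlap in either direction.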
